A study of Arabidopsis thaliana with 6 samples.

Results

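The sites described here are the 426 places inside genes where peaks of TT1 and NTT overlapped. They were selected on the peak calls: a site is a TT1 peak that shares at least 1 bp with a peak of each of the 2 NTT libraries, and its TT1 summit lies inside an annotated gene and more than 500 bp from every annotated start site. Of 12908 TT1 peaks, 5033 (39.0%) overlapped a peak in both NTT libraries, and 426 of these 5033 common sites (8.46%) met the position rule. Overlap, position and fold enrichment chose or accompanied the choice of the sites and are given as a description, with no test.

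The data are ChIP-seq of *Arabidopsis thaliana* Col-0 seedlings that carry *Dex:TT1-GFP* or *Dex:NTT-GFP*, both driven by the dexamethasone (Dex) inducible pOp6/LhGR system with a 35S-expressed activator, so that each fusion was made in most cells and not only where the native gene is active, which limits them as a model of native binding. Seedlings were 7 days old and all lines, inputs included, had 1 µM Dex for 8 h. Chromatin was fixed with 1% formaldehyde, sheared to about 300 bp and precipitated with an anti-GFP antibody. There was 1 TT1-GFP library and 2 NTT-GFP libraries, each from a pool of about 100 seedlings, with 3 inputs that have no peak list of their own. An anti-GFP library from plants without a fusion was not analysed here.

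TT1 (TRANSPARENT TESTA1, also WIP1) and NTT (NO TRANSMITTING TRACT, also WIP2) are zinc finger transcription factors of the WIP family. TT1 is known for seed coat pigmentation and NTT for the transmitting tract of the ovary, the path that pollen tubes take. In plants most transcription factor binding is mapped to promoters, but several regulators are also controlled by sequence inside the gene, of which the long intron of the floral gene *AGAMOUS* is the textbook case. Introns, coding exons and 3′ UTRs can hold such elements, and a site at the end of one gene can also lie in front of the next.

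Sequences at sites that ranked best for a motif and class are shown to make the motifs concrete. *AT4G32950* was added as a further coding exon site with a GA repeat. Sites were ranked by the mean of their fold enrichment ranks among all common sites in the 3 libraries, and each sequence is read 5′ to 3′ on the strand of its host gene in the TAIR10.1 assembly, with the motif nearest to the summit in capitals. The first set holds GA repeats, searched as GAGAGAG on both strands, so that CTCTCTC is the same motif on the other strand.
LBD37 3′ UTR, chr5:26903893-26903921, minus strand: catgacacagaGAGAGAGcccctttggta
AT2G27310 coding exon, chr2:11684039-11684067, minus strand: aagatacaatgGAGAGAGaataaagagag
AT4G32950 coding exon, chr4:15904466-15904494, minus strand: gtcgtgtgtctCTCTCTCaacaagaagca
AT1G80610 intron, chr1:30303087-30303115, minus strand: tctttctctctCTCTCTCtatgctgcttt

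The second set holds W-boxes, the element bound by WRKY factors, searched as TTGACC and TTGACT on both strands (reverse strand GGTCAA and AGTCAA).
WRKY7 3′ UTR, chr4:12573483-12573512, plus strand: actatccagattAGTCAAcgacagagtggg
AT5G18460 coding exon, chr5:6124029-6124058, plus strand: ccaagtctttgtTTGACTttggcaaaaagc
AT3G44610 intron, chr3:16190512-16190541, minus strand: cgattaataaaaAGTCAAaacgagtggggt

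The third set holds the core of the abscisic acid response element (ABRE core, ACGTG) and the G-box (CACGTG), the palindrome bound by bHLH and bZIP factors. Every G-box contains an ABRE core, so these motifs overlap.
AT5G05140 3′ UTR, ABRE core, chr5:1522937-1522965, plus strand: gggtgggagataACGTGgatggataggaa
BEE1 3′ UTR, G-box, chr1:6333488-6333517, plus strand: agagagcaaaggCACGTGagacagtggaga
UMAMIT45 coding exon, G-box, chr3:10458859-10458888, plus strand: tctaccatggtcCACGTGtctttgttgcat
WRI1 intron, G-box, chr3:20116962-20116991, plus strand: gcgcgcgtaggtCACGTGataacactctca

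TT1 peaks inside genes were shared with NTT less often than the whole list. Of the 1531 TT1 peaks that met the position rule, 426 (27.8%, 95% Wilson interval 25.6 to 30.1%) were common, against 3194 of 6878 TT1 peaks within 500 bp of a start site (46.4%) and 1413 of 4499 TT1 peaks outside genes (31.4%), and against 39.0% of all TT1 peaks. Of the TT1 peaks inside genes, 64.1% met a peak of NTT replicate 1 and 31.2% a peak of NTT replicate 2, whose list is the shorter one, with 7447 peaks against 16167. The second NTT library was the stricter of the 2 conditions.

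The summits lay close together in the 3 libraries, which the selection itself favours. Where several NTT peaks overlapped a TT1 peak, the one with the nearest summit was taken. Overlap also limits the distance, since the median peak widths were 459 bp for TT1, 323 bp for NTT replicate 1 and 224.5 bp for NTT replicate 2. The median distance of the TT1 summit was 29 bp to the summit of NTT replicate 1 and 34 bp to that of NTT replicate 2, and 26 bp lay between the NTT summits. For the other 4607 common sites the same medians were 26, 30 and 24 bp. The NTT summit met the position rule by itself at 404 sites in replicate 1 and 405 in replicate 2, and in both at 395 of 426 (92.7%). The smallest overlap was 21 bp, in the 3′ UTR of *FLA2*, and this was the only site with less than 50 bp shared.

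The sites were spread unevenly over the parts of genes. The TT1 summit lay in a coding exon at 164 sites (38.5%, interval 34.0 to 43.2%), in a 3′ UTR at 140 (32.9%, 28.6 to 37.5%), in an intron at 87 (20.4%, 16.9 to 24.5%), in the exon of a non-coding gene at 18 and in a 5′ UTR at 17. Sequence that could hold a site by the position rule, called eligible here, came to 53.9 Mb and was 47.4% coding exon, 27.8% intron, 14.4% non-coding exon, 9.61% 3′ UTR and 0.763% 5′ UTR. The density was 41.3 sites per Mb in 5′ UTRs, from 17 sites, and 27.0 in 3′ UTRs, against 6.42 in coding exons, 5.80 in introns and 2.31 in non-coding exons. All 1531 TT1 peaks inside genes were also densest in UTRs, with 126 per Mb in 5′ UTRs and 95.7 in 3′ UTRs, but had slightly more in introns (23.7) than in coding exons (22.6). The shares of these peaks that were common had overlapping intervals in 3′ UTRs, coding exons and introns (28.2, 28.4 and 24.4%). Where transcripts of a gene differ, a base counted as coding exon before UTR and as exon before intron. Non-coding exons are those of all transcripts without coding sequence, pseudogenes included.

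**Figure D1:**
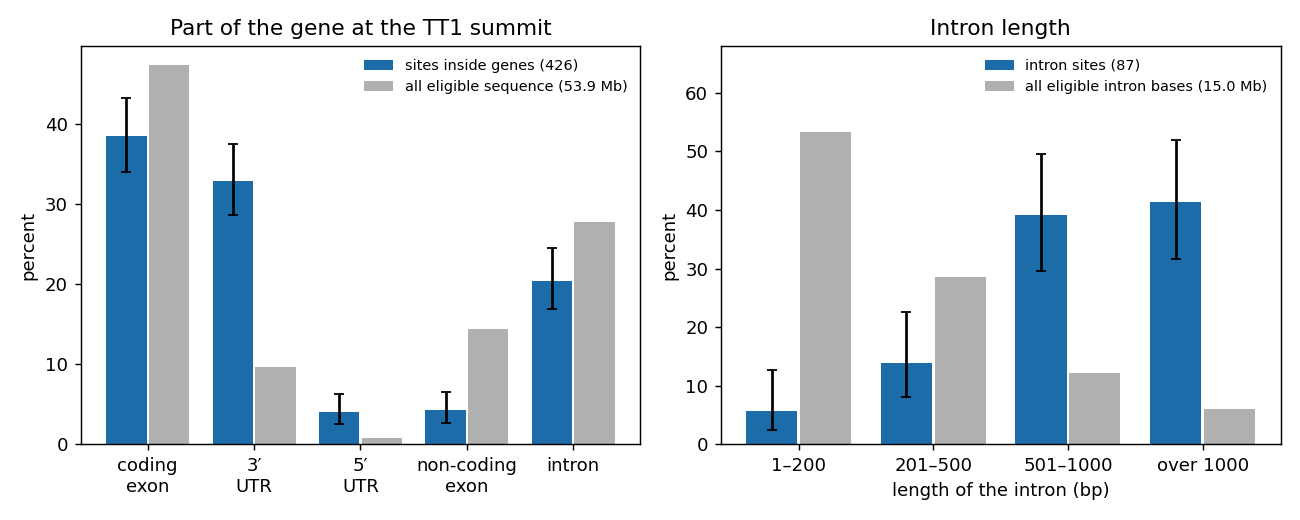
Left, percent of the 426 sites (blue) and of the 53.9 Mb of eligible sequence (grey) in each part of a gene. Right, percent of the 87 intron sites (blue) and of all eligible intron bases (grey) by intron length. Bars are percents and error bars 95% Wilson intervals. The 3′ UTRs held 32.9% of sites on 9.61% of sequence, and introns of over 1000 bp held 41.4% of intron sites on 6.01% of intron bases.

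Intron sites were mostly in long introns. The median length of the intron around a site was 846 bp (range 88 to 5134 bp), against 178 bp for the intron around a typical eligible intron base. Introns of over 1000 bp held 36 of the 87 sites (41.4%, interval 31.6 to 51.9%) on 6.01% of eligible intron sequence, which is 39.9 sites per Mb. Introns of up to 200 bp held 5 sites on 53.2% of that sequence, or 0.626 per Mb. All TT1 peaks in introns had the same slope, with 139.8 per Mb in introns of over 1000 bp and 4.01 in those of up to 200 bp. The pattern is therefore not particular to the common sites. A first intron of some transcript held 40 of the 87 sites (46.0%), against 18.1% of eligible intron bases. An intron of 200 bp is shorter than the sheared fragments, so a peak over it also spans exon sequence, and the part of peak width in this was not tested.

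Along the gene the sites gathered toward the 3′ end. Of the 407 sites in protein-coding hosts, 94 lay within 250 bp of the gene's 3′ end (19.98 per Mb of eligible sequence) and 88 lay from 251 to 500 bp (17.4 per Mb), while the 59 sites more than 2000 bp from it had 4.57 per Mb. Distance to start sites gave no such slope between 501 and 2000 bp, where the density was 8.31 to 9.04 sites per Mb. It was 7.42 from 2001 to 3000 bp and 2.19 beyond 3000 bp, where only 11 sites lay.

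**Figure D2:**
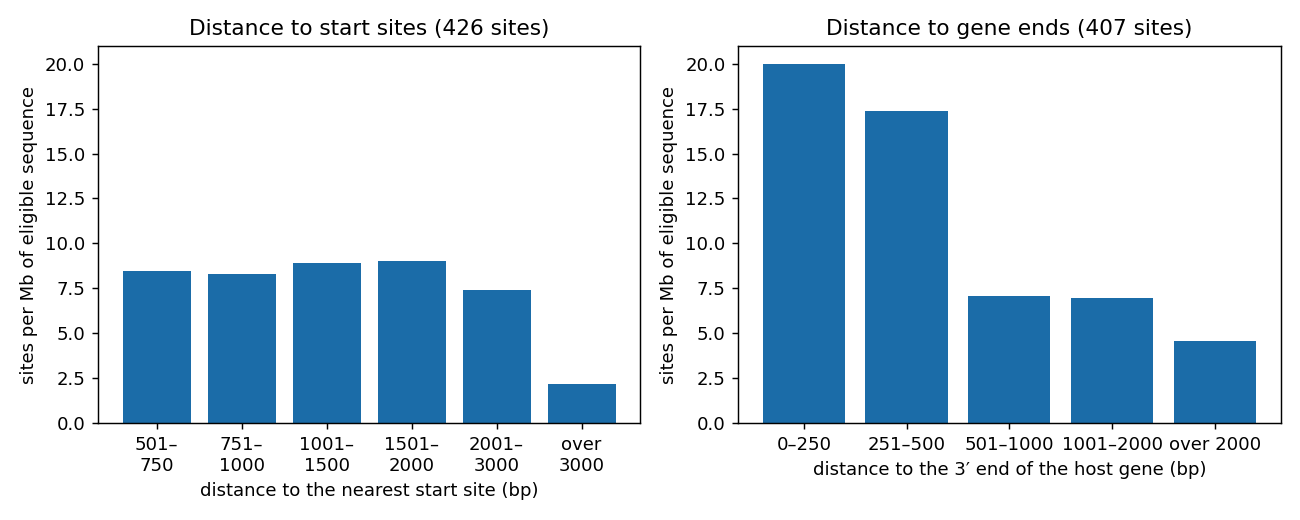
Sites per Mb of eligible sequence (y axes) by distance in bp to the nearest annotated start site (left, 426 sites) and to the 3′ end of the protein-coding host (right, 407 sites). Density was level from 501 to 2000 bp from start sites, at 8.31 to 9.04 sites per Mb, and was 19.98 in the last 250 bp of genes.

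Many gene ends lie in front of a neighbouring gene. For 71 of the 140 sites in 3′ UTRs (50.7%) the nearest start site belonged to another gene, against 42 of 164 coding exon sites (25.6%) and 19 of 87 intron sites (21.8%). However, a position within 1500 bp upstream of another protein-coding gene was about as frequent at 3′ UTR sites (42 of 140, interval 23.0 to 38.0%) as over all eligible 3′ UTR bases (27.8%). The density of 3′ UTR sites was 29.2 per Mb at such positions and 26.2 per Mb elsewhere. Coding exon sites (15.9% against 19.8% of bases) and intron sites (10.3% against 16.9%) were not gathered there either. Sites in exons of non-coding genes had a larger share there, with 6 of 18 (33.3%, interval 16.3 to 56.3%) against 4.75% of eligible non-coding exon bases. Those bases include pseudogenes, while only 1 site of all had a pseudogene as host. The shares can therefore set unlike kinds of gene side by side, and the difference was not tested.

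Just inside the 500 bp limit were sites in *AT1G04613* (501 bp), *TPPG* (502 bp) and *CCR3* (504 bp), and just outside it common sites in *ABCF5* and *AT5G18650* (both 500 bp) and *AT1G05133* (499 bp). The TT1 fold enrichment was 6.64, 5.89 and 4.05 at the first 3 and 6.46, 5.21 and 2.97 at the other 3.

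Fold enrichment is the pileup of ChIP reads at the summit divided by the background MACS2 expects there. Its median inside genes was below that of the other common sites in each library, though the values overlapped. In the TT1 library the median was 4.74 (quartiles 3.68 and 5.80) inside genes, 4.71 within 500 bp of a start site and 5.35 outside genes, and all other common sites together had 4.90. In NTT replicate 1 the medians were 7.31, 7.76 and 8.00, and in NTT replicate 2 they were 3.92, 4.08 and 4.23, and those of all other common sites 7.84 and 4.13. The class near start sites was thus level with the sites inside genes in the TT1 library. Of the sites inside genes, 75 (17.6%) were among the top 10% of the TT1 list, 85 (19.95%) in that of NTT replicate 1 and 41 (9.62%) in that of NTT replicate 2, against 22.8, 26.1 and 14.0% of the other common sites. Levels cannot be set against each other between libraries, whose depth is unknown. Within genes, the medians of the 3 main classes lay close, at 4.59 in coding exons, 4.80 in 3′ UTRs and 4.94 in introns in the TT1 library, and at 7.10, 7.47 and 7.05 in NTT replicate 1. The order of sites by fold enrichment was shared only in part: over the 426 sites, which share their libraries and their selection, Spearman's rho was 0.43 between TT1 and NTT replicate 1, 0.34 between TT1 and NTT replicate 2, and 0.48 between the NTT libraries.

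**Figure D3:**
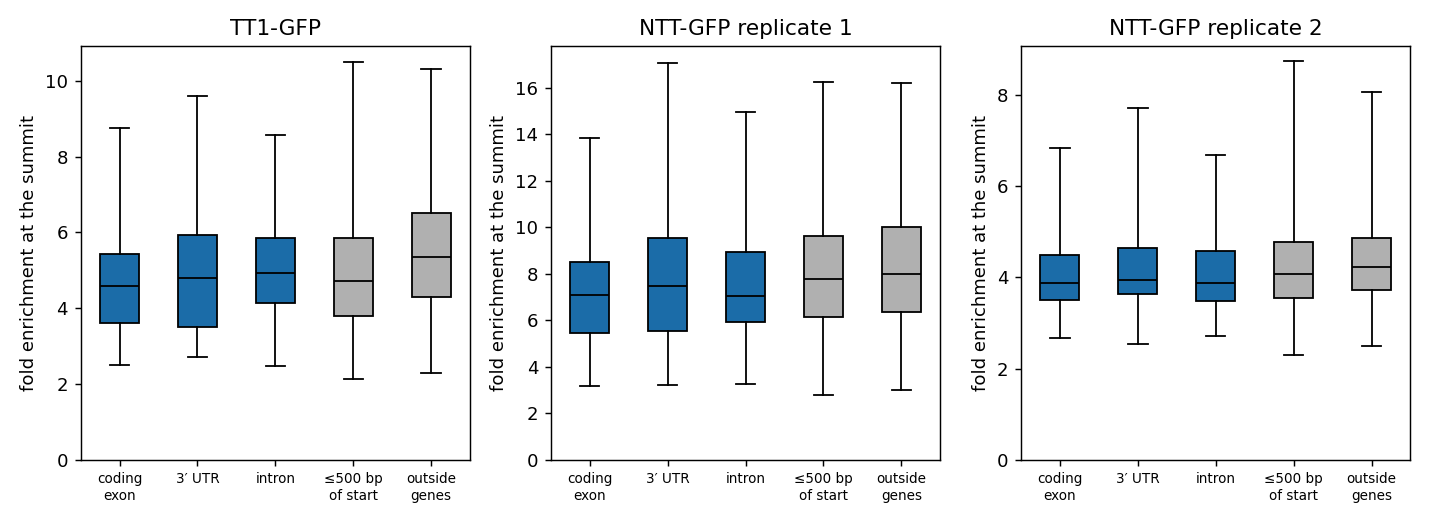
Fold enrichment at the summit (y axis, ratio, a scale for each library) in coding exon, 3′ UTR and intron sites (blue) and in common sites within 500 bp of a start site and outside genes (grey). Boxes span the quartiles with the median, and whiskers reach the lowest and highest site. In NTT replicate 1 the median of intron sites was 7.05, against 7.76 within 500 bp of a start site.

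The strongest site inside a gene was in the 3′ UTR of *LBD37*, which encodes a LOB domain repressor of nitrogen-responsive genes. Its fold enrichment was 9.60 in the TT1 library, 17.1 in NTT replicate 1 and 7.71 in NTT replicate 2, each the highest of the 426 sites, and its summit lay 38 bp from the end of the gene, 3 bp from the GA repeat printed above. The 3′ UTR site of *AT5G05140*, which encodes a TFIIS-type elongation factor, had 8.62, 15.9 and 6.97 in the same order of libraries. The 3′ UTR site of *WRKY7* had 8.44, 12.4 and 7.52, with a W-box 8 bp from the summit. *BEE1*, a bHLH factor induced by brassinosteroid, had 7.31, 13.2 and 6.52 at a 3′ UTR site with 1 G-box. With *AT5G40460*, which encodes a cyclin-dependent kinase inhibitor of the SMR kind (8.41, 12.9 and 5.20), 5 of the 10 best-ranked sites were in 3′ UTRs.

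Coding exon sites were led by *AT2G27310*, an F-box gene, with fold enrichments of 8.75 in the TT1 library, 12.2 in NTT replicate 1 and 6.83 in NTT replicate 2. Next came *AT3G11580*, a B3-type factor gene (7.51, 11.3 and 6.32), *AT4G32950*, a PP2C phosphatase gene (6.28, 13.8 and 6.70), *AT5G18460* (6.24, 10.2 and 5.75) and *AT4G15960* (8.01, 9.19 and 5.04). The first 3 of these sites lay 253, 277 and 384 bp from the 3′ end of the gene. The best intron site was in intron 4 of *RBOH F*, which encodes an NADPH oxidase that makes reactive oxygen (7.32, 14.3 and 5.85). It was followed by *AT1G71710* (6.94, 12.98 and 6.64, in an intron of 4098 bp), *AT1G27100* (8.57, 11.7 and 5.42, in an intron of 1856 bp), *WRI1*, the AP2 factor of seed oil synthesis (6.86, 11.8 and 5.39, in an intron of 1640 bp), and *AT2G30760* (7.53, 9.71 and 6.25, in an intron of 1079 bp). No motif of the 4 searched was within 100 bp of the summit in *RBOH F*, *AT1G71710* or *AT1G27100*.

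The hosts of the classes with few sites were named in the same order after their values were seen. The 5′ UTR sites belong to genes whose leader is long or has an intron, since they too lie over 500 bp from a start site. The first was in *UVR8*, the UV-B photoreceptor (8.07, 12.3 and 6.19), ahead of *GAD2*, a glutamate decarboxylase gene (6.65, 10.7 and 5.0001), *NDT1* (5.55, 11.6 and 4.13), *SOS3*, a calcium sensor of salt stress (6.25, 10.9 and 3.95), and *AT5G66650* (3.79, 12.3 and 4.83). Of non-coding hosts the first was *AT4G07385*, a long non-coding RNA gene (8.17, 12.6 and 4.79), where the TT1 summit lay 1526 bp downstream of the start of *DREB1A*. It was followed by *AT3G54366*, *AT3G03705*, *AT5G02955* and *AT1G09965*, with TT1 fold enrichments of 5.92 to 7.30.

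Motifs were counted in the 201 bp centred on each TT1 summit and set against every 201 bp window centred on an eligible base, weighted by the classes of the sites. A G-box was in 61 of the 426 sites (14.3%, interval 11.3 to 18.0%), against 1.68% of windows, an 8.54-fold difference. An ABRE core was in 143 sites (33.6%, 29.2 to 38.2%) against 11.3% of windows, and 72 of the 143 had more than 1 match. A G-box reads as an ABRE core on both strands and so gave more than 1 match by itself. All 61 sites with a G-box are therefore among these 72, which are not a count of sites with separate elements. A W-box was in 131 sites (30.8%, 26.6 to 35.3%) against 18.7% of windows, and a GA repeat in 53 sites (12.4%, 9.64 to 15.9%) against 5.14% of windows. None of the 4 was present at 169 sites (39.7%), against 31.9% of the other common sites. Where present, the nearest match lay a median of 41 to 44 bp from the summit for each motif. These medians are near the middle of the 100 bp searched to each side, so by themselves they show little gathering at the summit. In bins of 20 bp, W-box matches were 3.76 and 3.29 per 100 sites in the bins centred at -10 and 10 bp. Bins more than 200 bp away had 1.88 to 4.46, so the W-box had no clear peak at the summit. The other motifs were higher in the same central bins than more than 200 bp away. GA repeat matches were 3.29 and 2.82 per 100 sites against 0 to 1.64, and G-box matches 2.11 and 1.41 against 0 to 0.94. ABRE core matches were 6.57 and 5.40 against 1.17 to 4.93. A site with several matches counts more than once in these values.

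The GA repeat was less frequent at sites inside genes than over all other common sites, a contrast that lay with the sites near starts. It was in 12.4% of the 426 sites and in 25.7% of the other 4607 (odds ratio 0.41, 95% interval 0.31 to 0.55, adjusted p = 4.16e-10, two-sided Fisher's exact test, adjusted over 4 motifs). Among the other common sites it was in 32.1% of those within 500 bp of a start site (interval 30.5 to 33.7%) but in 11.3% of those outside genes (9.77 to 13.1%), whose interval overlaps that of the sites inside genes (9.64 to 15.9%). The difference from each of these classes alone was not tested. Sequence near start sites was itself richer in it, with 9.24% of windows within 500 bp of a start site and 4.86% of windows inside genes. The share of sites over the share of windows was 2.56 inside genes, 3.47 near start sites and 3.33 outside genes, and these ratios were not tested. W-box (odds ratio 1.09, interval 0.88 to 1.35, adjusted p = 0.736), ABRE core (1.02, 0.83 to 1.26, adjusted p = 0.872) and G-box (1.09, 0.82 to 1.45, adjusted p = 0.736) did not pass the same Fisher's exact test. For the G-box this rested on the NTT libraries: without NTT replicate 1 the odds ratio was 1.34 (adjusted p = 0.0454, Fisher's exact test), and without NTT replicate 2 it was 0.94, with a G-box in 9.38% of sites inside genes. Sites are not replicate libraries, and these p-values compare lists of sites from the same 3 libraries.

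**Figure D4:**
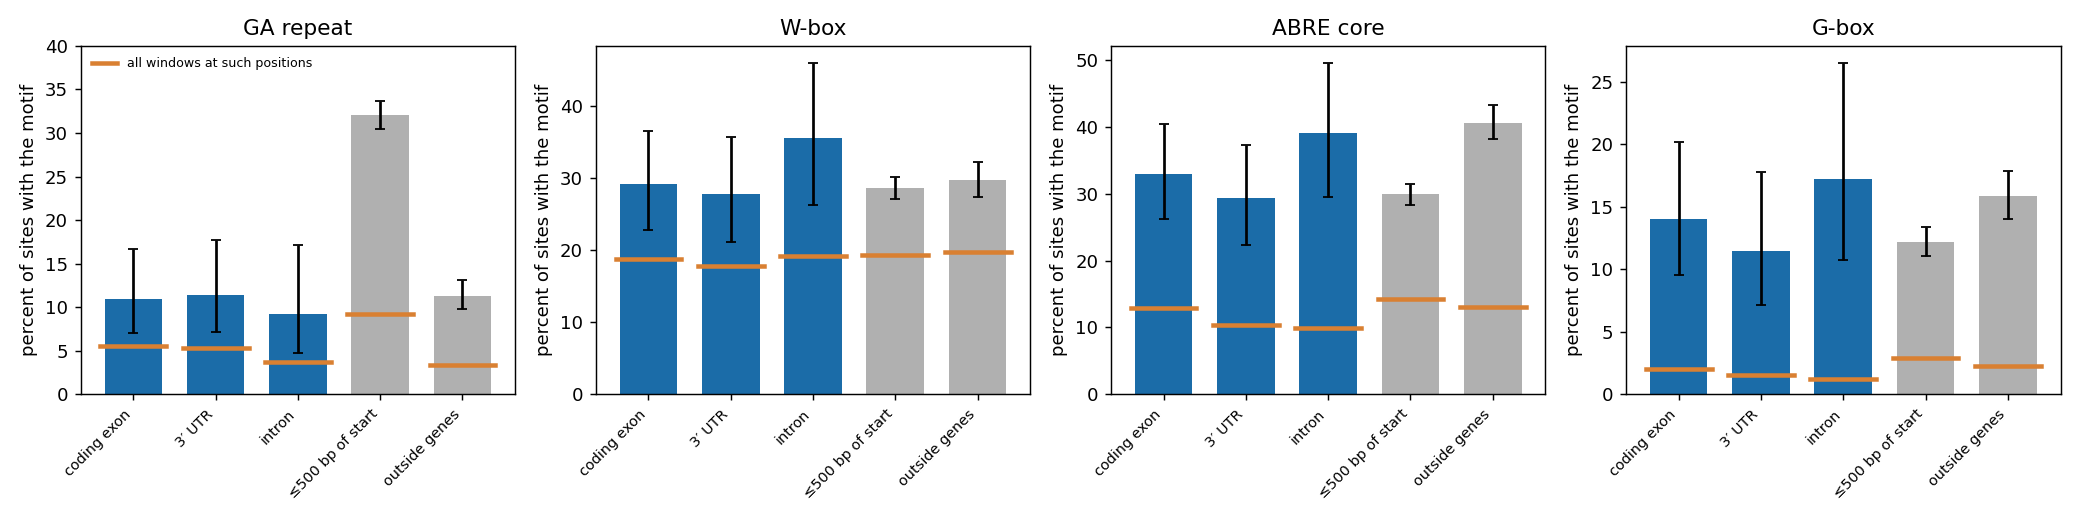
Percent of sites with each motif within 100 bp of the TT1 summit (y axes) in coding exon, 3′ UTR and intron sites (blue) and in common sites within 500 bp of a start site and outside genes (grey). Error bars are 95% Wilson intervals, and the orange line is the percent of all windows at such positions. The GA repeat was in 12.4% of all sites inside genes and in 32.1% of sites near starts, while the G-box was at 11.4 to 17.2% in the 3 blue classes.

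Intron and coding exon sites did not differ beyond their error in any motif. The G-box was in 15 of 87 intron sites (17.2%) and 23 of 164 coding exon sites (14.0%), with an odds ratio of 1.28 (interval 0.63 to 2.60, adjusted p = 0.772, two-sided Fisher's exact test over 4 motifs). The odds ratios were 1.31 for the ABRE core (0.76 to 2.24), 1.34 for the W-box (0.77 to 2.33) and 0.82 for the GA repeat (0.34 to 1.97), and these intervals leave room for differences of 2-fold. Set against their own windows, intron sites had 14.1 times the G-box share of eligible intron sequence (1.22% of windows) and coding exon sites 6.94 times that of coding exons (2.02%). In 3′ UTRs the G-box was in 16 of 140 sites (11.4%) against 1.54% of windows.

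**Figure D5:**
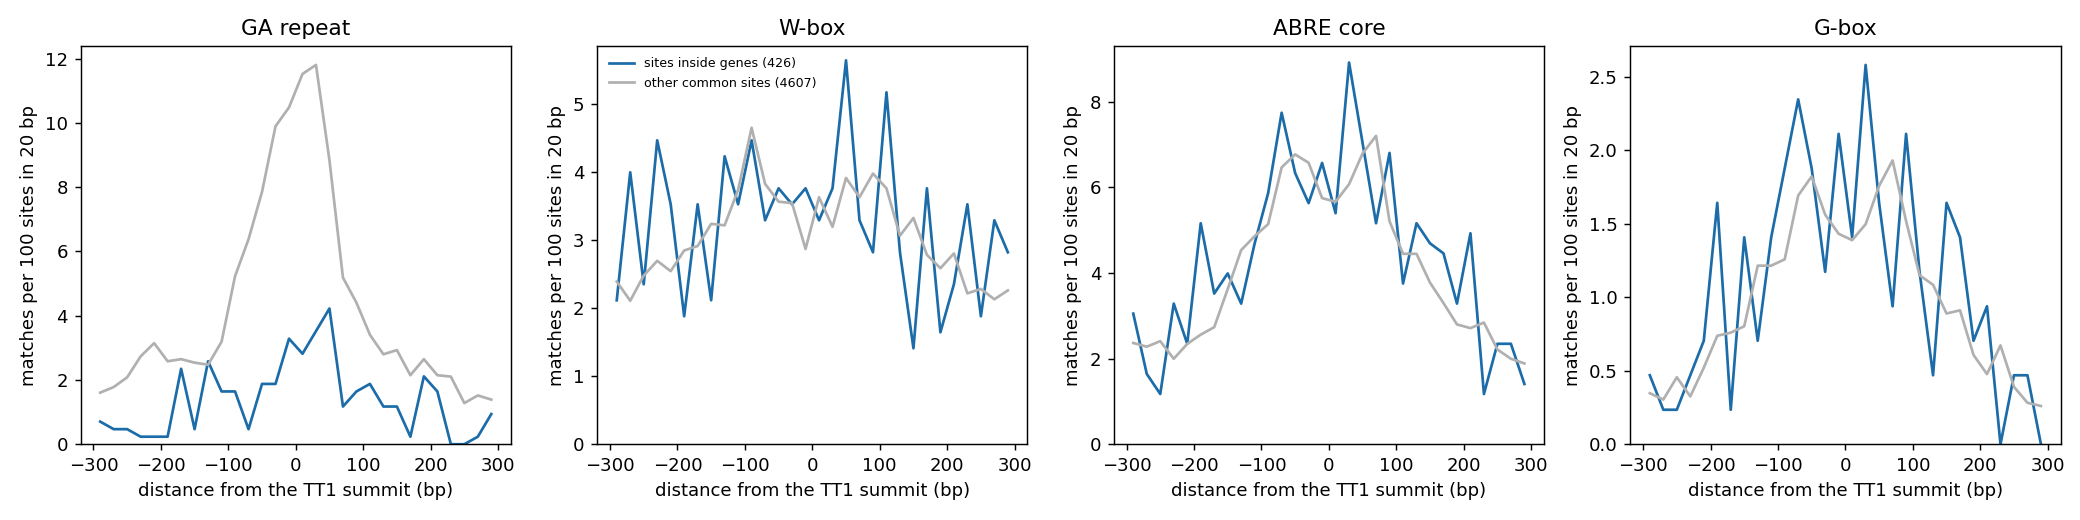
Motif matches per 100 sites in bins of 20 bp (y axes) by distance from the TT1 summit in bp, for the 426 sites inside genes (blue) and the other 4607 common sites (grey). The GA repeat was within 100 bp at 12.4% of sites inside genes and at 25.7% of the others, which include the sites near starts (32.1%). The ABRE core and the G-box have similar lines in both sets, higher around the summit than 200 bp or more away. Each G-box is counted as an ABRE core match on both strands. The GA repeat line of the sites inside genes is higher around the summit than more than 200 bp away. The W-box line of the sites inside genes has no clear peak at the summit.

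The fold enrichment hardly varied with the motifs. In NTT replicate 2 the median was 4.197 at the 53 sites with a GA repeat and 3.89 at the 373 without, and in the TT1 library 4.71 and 4.74. For the G-box the TT1 medians were 4.94 with and 4.71 without, and those of NTT replicate 1 were 6.97 and 7.36. All these pairs lay within the quartiles of each other.

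When all sequences of 6 bases were ranked by the share of sites over the share of windows, with both strands merged, the G-box came first, followed by ACGCGC and CGCGCC. The next words were also rich in C and G. Ranked 7, the core of the GCC-box bound by ERF factors, which is GCCGCC and on the other strand reads GGCGGC, was in 52 sites (12.2%) against 1.89% of windows, and in 5.77% of the other common sites. It was most frequent in coding exons, with 34 of 164 sites (20.7%) against 3.05% of windows, while introns had 5 of 87 (5.75%) against 0.971% and 3′ UTRs 12 of 140 (8.57%) against 1.05%. This word was chosen after the ranking was seen. Sites in coding exons also had more G and C than exon windows at large, with a mean of 44.1 ± 5.39% (SD over 164 sites) against 41.6%, and sites in 3′ UTRs had 37.1 ± 4.84% (SD over 140 sites) against 33.5%. The part of base composition in the ranking was not tested. GAGAGA ranked 503, and the W-box words TTGACT and TTGACC ranked 247 and 402. The sequences below show the word at the best-ranked site of each class that holds it.
AT4G32950 coding exon, chr4:15904535-15904564, minus strand: cgaggtggcagaGGCGGCgactaatgcgtg
AT1G68390 intron, chr1:25644297-25644326, plus strand: acttttgttaacGGCGGCtagtgtgtctct
LBD37 3′ UTR, chr5:26903871-26903900, minus strand: ctttggtatagaGGCGGCttttggacgacg

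The sites fell in 414 genes, of which 395 were protein-coding, or 1.55% of the 25552 protein-coding genes with eligible sequence. Only 11 genes had more than 1 site. *AT5G59050*, which encodes a G patch protein, had 3, with TT1 fold enrichments of 3.95 in a coding exon and 6.21 and 4.99 in 3′ UTRs of its transcripts, and 10 genes had 2 sites, among them *BEL1*, *AT3G11580* and *AT3G57800*. By eligible sequence, the share of hosts was 0.330% of genes with up to 500 bp, 1.00% up to 1 kb, 1.64% up to 2 kb, 2.39% up to 4 kb and 1.73% of longer genes. The density in the same order was 12.5, 13.3, 11.2, 9.31 and 3.11 sites per Mb, so that the longest genes held the fewest sites for their length. Density ranged from 7.61 to 8.22 sites per Mb over the 5 chromosomes.

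Host genes had a common site at their start more often than protein-coding genes at large. A common site within 500 bp of one of their own start sites was found for 100 of the 395 protein-coding hosts (25.3%, interval 21.3 to 29.8%), against 12.2% of all protein-coding genes with eligible sequence. It was found for 40 of 160 hosts of coding exon sites, for 38 of 139 hosts of 3′ UTR sites (27.3%) and for 19 of 84 hosts of intron sites (22.6%), with overlapping intervals. With a stricter peak call the host share was lower, at 14.9% against 8.03% of all such genes. Hosts were longer, with a median of 2703 bp against 2184 bp. The genes were not matched on length or number of start sites, and the part of these was not tested.

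Among the lists of transcription factor families, *WRKY* genes had the largest share of hosts. Of 71 *WRKY* genes 5 were hosts (7.04%, interval 3.05 to 15.4%, against 1.55% of all protein-coding genes). *WRKY7*, *WRKY11* and *WRKY17*, all of the subgroup that binds calmodulin, had fold enrichments of 8.44, 8.70 and 7.17 in the TT1 library, 12.4, 10.7 and 7.16 in NTT replicate 1 and 7.52, 4.97 and 5.94 in NTT replicate 2. Their sites lay 277, 504 and 422 bp from the 3′ end of the gene. *WRKY28* (4.58, 11.1 and 4.19) and *WRKY45* were the other hosts.

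Of 127 genes with eligible sequence whose annotated name or product marks them as bHLH in the usual wording, 5 were hosts (3.94%). The wording missed 2 bHLH hosts, *BEE1* and *AT5G09460* (annotated as bHLH143), so that the share is that of an incomplete list, and other lists matched by wording may also be incomplete. The 5 hosts included *AT3G57800* with 2 sites, *AT4G29930* (6.61, 9.57 and 3.95), *BIM1*, which acts in brassinosteroid signalling (7.55, 6.94 and 3.85), and *AT2G43140* (4.67, 10.8 and 3.44). Of 74 bZIP genes 3 were hosts (4.05%). These were *HY5*, the positive regulator of light responses, with a coding exon site (6.12, 5.86 and 3.19) and a GA repeat 17 bp from the summit, and *TGA4* and *bZIP6* with intron sites. Of 106 homeobox genes 4 were hosts (3.77%): *BEL1*, an ovule integument gene with 2 coding exon sites, *WOX1*, a gene of leaf blade outgrowth (6.91, 8.39 and 3.93), *KNAT6*, a meristem gene with a site in an intron of 3676 bp (5.40, 8.13 and 3.69), and *HAT1*. *NAC041* was the host among 100 NAC genes, *WRI1* and *ERF12* among 107 ERF and AP2 genes, and *AT3G27340* and *MYB47* among 123 MYB genes. None of 113 MADS-box genes was a host. The upper limit of their interval (3.29%) lies above the 1.55% of all protein-coding genes, so no lower frequency was detectable.

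Hormone genes had a few sites each. *PIN3* and *PIN4*, which encode auxin efflux carriers, both had a site in a coding exon (6.48, 11.5 and 4.56 for *PIN3*, 5.44, 8.25 and 5.29 for *PIN4*, at 49.4 and 64.6% of gene length), and *IAA16*, an auxin response repressor, had one 74 bp from its end. They were the 3 hosts among 58 auxin transport and response genes (5.17%). The 3 hosts among 25 ethylene genes (interval 4.17 to 29.96%) were *EBF1*, an F-box gene that limits ethylene signalling (6.14, 9.997 and 3.07), and the ACC synthase genes *ACS2* and *ACS6*, the enzymes of the committed step of ethylene synthesis. *LOX3*, a lipoxygenase of jasmonate synthesis (4.51, 8.56 and 4.28), and *TIFY7*, a JAZ repressor, were hosts among 28 jasmonate genes. *BEH2*, *BAS1* and *BEH1* were hosts among 29 brassinosteroid genes, *SARD1* among 19 salicylic acid genes and *CYP707A1*, an abscisic acid catabolic gene, among 39 abscisic acid genes.

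Receptor kinase genes had a share of hosts close to that of all genes but fewer sites for their length. Other kinases were lower in both. The density was 5.21 sites per Mb of eligible sequence in receptor kinase genes and 2.01 in other kinase genes, against 8.79 in all protein-coding genes. Of 181 leucine-rich repeat receptor kinase genes 3 were hosts (1.66%), which were *AT2G15300* (7.76, 6.84 and 5.004), *AT4G08850* and *AT1G07650*, and of 658 other kinase genes 3 (0.456%, interval 0.155 to 1.33%), *AT3G44610*, *MAPKKK13* and *AT5G03140*. No host was found among 50 chromatin and Polycomb genes (upper limit of the interval 7.13%), 60 photosystem genes (6.02%) or 305 ribosomal protein genes (1.24%). The limits of the short lists reach well above 1.55%, so that for them no lower frequency was detectable. The 305 ribosomal protein genes together held only 0.297 Mb of eligible sequence, and the share of hosts varied with eligible sequence. Their limit lies above the 1.00% of genes with 501 to 1000 bp, so no lower frequency is shown for them either. The lower bound of the interval was above 1.55% for *WRKY* (3.05%), auxin (1.77%), ethylene (4.17%), jasmonate (1.98%) and brassinosteroid genes (3.58%), and for the incomplete bHLH list (1.69%). It was below 1.55% for the factor and kinase lists not named here and for the salicylic acid and abscisic acid genes. These shares were not tested. The lists with a bound above 1.55% held 2 to 5 hosts each and were chosen with earlier results of these data known. Their intervals cover counting error only and were not adjusted for the number of lists. The bounds therefore do not show that a list holds more hosts than other genes.

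The 5 genes picked for known regulatory sequence within the gene were not hosts, but with an upper limit of the interval of 43.4% no lower frequency was detectable. *AG*, *STK* and *SEP3* had no summit of any library inside the gene, and *PTL* had 1 summit of NTT replicate 1 only. *FLC* had a common site inside the gene, but within 500 bp of a start site. Of the 13 genes that the study names with its binding data, *PIN3* was the only host. *PIN7*, *JAZ8*, *BLH4*, *WSIP2*, *ARGOS*, *ULT1* and *KAN* each had a common site inside the gene but within 500 bp of a start site. *JAZ5*, *ABO3*, *LRX1*, *AGL14* and *PTL* had no common site inside the gene. The paper assigned peaks to genes only near start sites, a window that largely excludes the positions counted here. The low number of hosts among these genes is therefore no finding about them. The paper gives *AGL14* and *PTL* as examples for TT1, and *LRX1*, *ARGOS*, *PIN3* and *PIN7* for NTT. It also names *PIN4*, a host here, among down-regulated auxin transport genes.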

How the data were processed

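The authors mapped reads to TAIR10 with BWA, kept unique reads, removed duplicates with Picard and called peaks per ChIP library against its input with MACS2 version 2.1.2. Per the deposited files, each peak has a score (10 times the −log10 q-value), a fold enrichment (ratio to local background), −log10 p-values and q-values at the summit and the offset of the summit. Read depth is not given in the sources used here, so no counting interval was given for levels.

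From these lists overlaps, positions and motifs were computed with Python 3.11.15, numpy 2.4.6 and scipy 1.17.1. Gene models came from the RefSeq annotation of TAIR10.1 (37899 nuclear genes, 51909 start sites of genes and transcripts), whose 5 chromosome lengths match TAIR10. It is not the annotation used by the authors. Shares carry 95% Wilson intervals, which cover counting error only. Motif shares were compared by Fisher's exact test with Benjamini-Hochberg adjustment over 4 motifs, at a threshold of 0.05. Overlap and motif code was checked on simulated data. The members and the gene lists were chosen with earlier results of these data known. Genes were named by rule: hosts of the 10 best-ranked sites, of the 5 best in coding exons, introns and 3′ UTRs, of the best site per motif and class, of up to 4 best per list, genes with 3 or more sites, genes the study names, and those at the 500 bp limit. Alternatives changed the q threshold, overlap, position limit, start sites, NTT library, gene types, motif window and class order.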

Additional observations from a re-analysis of the deposited data

How the results depend on the processing

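The lower share of GA repeats inside genes than at all other common sites together held under all 10 alternatives, with odds ratios of 0.31 to 0.50. Taken alone, sites inside genes (12.4%) and common sites outside genes (11.3%) had overlapping intervals and were not tested against each other. With a −log10 q of at least 20 in each library the sites numbered 258, the hosts 241, and 14.9% of hosts had a common site at their own start (all genes 8.03%). The odds ratios against other common sites were then 0.95 for the W-box and 0.92 for the ABRE core, and that of introns against coding exons was 0.79 for the W-box. At over 1000 bp from start sites there were 275 sites, 25.5% in introns, 9.45% with a GA repeat and 11.3% with a G-box. There the odds ratios were 0.94 for the ABRE core and 0.81 for the G-box, and 1.31 for the GA repeat in introns against coding exons. Leaving out NTT replicate 1 or 2 gave 477 to 981 sites, 438 to 887 hosts and 25.8 to 37.0% with a site at their own start. It gave 27.2 to 36.1% with an ABRE core (odds ratio 0.89 to 1.11) and 9.38 to 17.6% with a G-box (0.94 to 1.34, adjusted p = 0.0454 by Fisher's exact test without NTT replicate 1). Introns against coding exons gave 0.94 to 1.25 for the ABRE core and 0.82 to 0.99 for the G-box. Counted within 50 bp, GA repeat and G-box were each at 7.51% of sites, the W-box at 17.1% and the ABRE core at 19.0%. The ABRE odds ratio was then 0.996, and introns against coding exons gave 1.44 for the GA repeat and 0.77 for the G-box. With a larger overlap required the ABRE odds ratio was 0.996, with gene starts only 0.95 (own-start share 32.0%, all genes 12.2%), and around the NTT replicate 1 summit 0.95, with 0.93 for the G-box. With introns counted before exons 27.7% of sites were in introns. None of the reversed odds ratios passed the test, and the cause of the shifts was not tested. No paired analysis was possible because the inputs that share replicate numbers with the ChIP libraries have no peak list. Depth is unknown, and with 1 TT1 library no value has a replicate error for TT1.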
